A study of Mus musculus with 12 samples.

Results

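The platelet-derived growth factors (PDGFs) and their receptors form a set of 6 mouse genes, the ligand genes Pdgfa, Pdgfb, Pdgfc and Pdgfd and the receptor genes Pdgfra and Pdgfrb. They were taken by symbol (PDGFA, PDGFB, PDGFC, PDGFD, PDGFRA and PDGFRB, as the table writes them) from a table of 16425 genes, in which all 6 had an entry. All 6 were among the 14440 genes that reached at least 0.5 CPM in at least 3 libraries and were tested. CPM is the number of reads of a gene scaled by the authors for the size of its library.

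RNA came from wild-type mouse embryonic fibroblasts (MEFs), connective tissue cells grown from embryos. The cells had been infected with 1 of 2 guide RNAs: a non-targeting control (sgtom, "control guide" here) or a guide (sg10, "p53RE guide") against the p53 response element of Pvt1, the DNA site through which the transcription factor p53 acts on this long noncoding RNA gene. Both groups described here, of 3 biological replicates each, were then treated with doxorubicin, which breaks DNA and activates p53, at 0.5 µM and for 24 h. The series also has 6 untreated samples, which were not analysed here, so that no value below shows what doxorubicin did. Whether infected cells were pooled or cloned, where the guide cuts and which embryos gave the replicates are not given in the sources used here.

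PDGFs are secreted dimers that drive division and migration of fibroblasts and other mesenchymal cells. PDGF-A and PDGF-B are cut into active form inside the cell by furin-like proteases, while PDGF-C and PDGF-D leave the cell with an inhibitory CUB domain that proteases such as tissue plasminogen activator (for PDGF-C) remove. Receptor alpha binds PDGF-A, PDGF-B and PDGF-C, receptor beta binds PDGF-B and PDGF-D, and both are tyrosine kinases that recruit Src kinases, phosphatidylinositol 3-kinase, phospholipase C gamma and Ras activators. Quiescent fibroblasts given PDGF switch on early genes such as Fos, Egr1 and Myc.

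The libraries held 50091418 to 66132317 reads in genes. Pvt1, the targeted gene, stood at 11.7 to 16.4 CPM with the control guide and at 5.40 to 8.04 CPM with the p53RE guide, so the labels and the data go the same way. Fibroblast markers, 10 of 10 with an entry, summed to 15635 to 18235 CPM, led by Col1a1, the main chain of collagen I, at 7910 CPM, while Dcn (21.3), Lum (11.3) and Fap (3.18 CPM) were far lower. Of the epithelial markers 4 had an entry, with Krt19 at 80.7 CPM the highest. The others were far lower: Krt18 at 2.61 CPM, and Epcam (0.470) and Cdh1 (0.410 CPM), which were not tested. Of the oligodendrocyte lineage markers 2 had an entry, with Mbp at 2.30 CPM the highest. Tests used limma, a linear model that shares variance information across genes, on log2(CPM + 0.5), with p adjusted over all tested genes by Benjamini-Hochberg and a threshold of 0.05.

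The comparison of guides asked whether targeting the response element alters PDGF RNA in damaged fibroblasts. Of the 6 genes, 0 passed in limma over all genes, against a background of 0% of all genes in that fit. Pdgfra was the 1 gene of the set whose 2 groups did not overlap, at 16.2% below the control mean, and it did not pass. The other 5 differed by at most 6.51% between group means, each by less than the larger SD of its 2 groups. At an unadjusted p under 0.05, limma counted 1 of 6, Pdgfra, where 0.346% of all genes had such a p and 0.118% had it with a lower level. The quasi-likelihood test of edgeR and DESeq2 on recovered reads also called 0 of the 6, with 1 each at an unadjusted p under 0.05.

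Replicates with the same number were paired in the data (see the processing below), so a second fit held replicate number as a block. It called 5 of 14440 genes (0.0346%), 0 of them PDGF genes. In that blocked fit 1 of the 6 again had an unadjusted p under 0.05, where 6.68% of all genes did, 3.37% with a lower level.

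**Figure D1:**
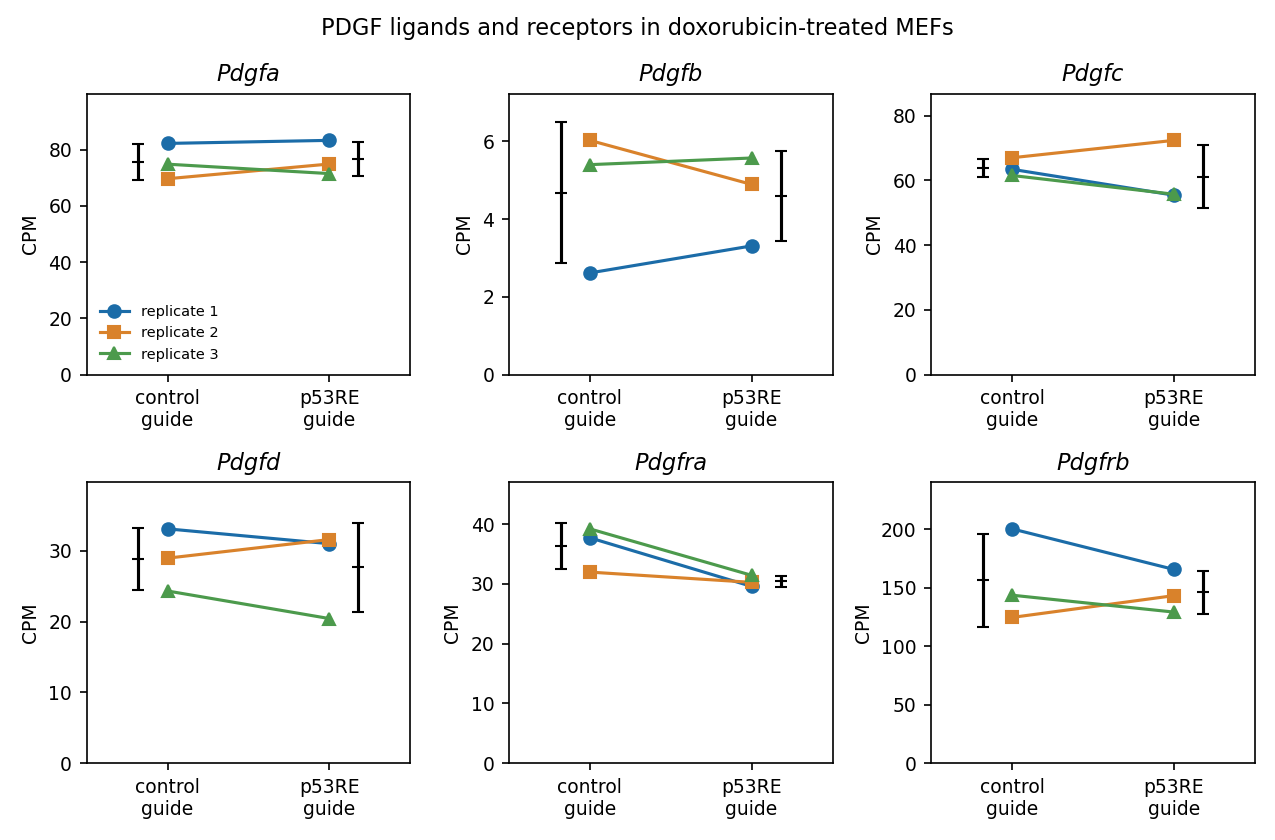
CPM (vertical axes, from 0) of the 6 PDGF genes in the 6 doxorubicin-treated libraries, 1 panel per gene; lines join libraries with the same replicate number and black bars give the mean and SD of each guide (n = 3). Pdgfra alone has all p53RE libraries (29.6 to 31.4 CPM) under all control libraries (32.0 to 39.2 CPM), and Pdgfb has both replicate 1 libraries (2.61 and 3.31 CPM) under the other 4.

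Pdgfa encodes PDGF-A, the ligand of receptor alpha. Its RNA stood at 82.2, 69.6 and 74.8 CPM with the control guide and at 83.3, 74.9 and 71.5 CPM with the p53RE guide, in replicate order. The groups overlapped, and both replicate 1 libraries were the highest. Means were 75.6 ± 6.31 and 76.5 ± 6.08 CPM (SD, n = 3 each), a log2 fold change of 0.02 (SE 0.0873) that did not pass (limma adjusted p = 1.0). The 95% confidence interval ran from 0.876 to 1.17 times the control level, and from 0.955 to 1.08 times in the blocked fit. Exons of Pdgfa share 813 bases with exons of the antisense gene 6330403L08Rik, which was listed at 18.1 to 25.7 CPM. Since the strand setting of the counting is not given in the sources used here, reads of these genes over the shared bases may not have been told apart.

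Pdgfb encodes PDGF-B, which binds both receptors and in the body comes largely from endothelial cells, platelets and macrophages. It was the scarcest member, resting on 151 to 405 reads per library. It stood at 2.61, 6.02 and 5.40 CPM with the control guide and at 3.31, 4.89 and 5.57 CPM with the p53RE guide. Replicate 1 was low with both guides, and the groups overlapped widely. Means were 4.68 ± 1.81 and 4.59 ± 1.16 CPM (SD, n = 3 each), with a log2 fold change of 0.02 (SE 0.321, limma adjusted p = 1.0). The interval, 0.592 to 1.73 times the control level, was the widest of the 6, and narrowed to 0.856 to 1.2 times in the blocked fit. Pdgfb lies on chromosome 15 (79995874 to 80014977, mm10, GENCODE M21), 17.6 Mb beyond the end of Pvt1.

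Pdgfc encodes PDGF-C, a ligand of receptor alpha widely made by mesenchyme. It stood at 63.5, 67.0 and 61.5 CPM with the control guide and at 55.5, 72.4 and 55.7 CPM with the p53RE guide. Replicate 2 was the highest with both guides and replicates 1 and 3 were lower with the p53RE guide than their partners, so the groups overlapped. Means were 64.0 ± 2.78 and 61.2 ± 9.69 CPM (SD, n = 3 each), with a log2 fold change of −0.07 (SE 0.113, limma adjusted p = 1.0). Its interval ran from 0.786 to 1.15 times the control level without the block and from 0.868 to 1.04 times with it.

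Pdgfd encodes PDGF-D, the ligand selective for receptor beta. It stood at 33.1, 29.0 and 24.3 CPM with the control guide and at 31.0, 31.6 and 20.4 CPM with the p53RE guide. Replicate 3 was the lowest with both guides, and the groups overlapped. Means were 28.8 ± 4.39 and 27.7 ± 6.28 CPM (SD, n = 3 each), with a log2 fold change of −0.07 (SE 0.195, limma adjusted p = 1.0), with an interval of 0.686 to 1.32 times the control level, or 0.860 to 1.05 times with the block.

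Pdgfra encodes receptor alpha, a marker of mesenchymal progenitors and many fibroblasts. It stood at 37.7, 32.0 and 39.2 CPM with the control guide and at 29.6, 30.2 and 31.4 CPM with the p53RE guide. The p53RE libraries lay close together and all below the control libraries, the nearest being control replicate 2. Groups stood apart with the p53RE guide lower for 1.47% of all tested genes, higher for 2.15%, and in either direction for 3.61%. Means were 36.3 ± 3.82 and 30.4 ± 0.940 CPM (SD, n = 3 each).

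Within pairs, Pdgfra was lower with the p53RE guide in 3 of 3, at 0.784, 0.946 and 0.802 times its partner, where 14.4% of all genes were lower in every pair and 28.8% went 1 way in every pair. The log2 fold change was −0.25 (SE 0.0884, unadjusted p = 0.0295, limma adjusted p = 1.0), the 21st smallest p of 14440 genes. The interval ran from 0.728 to 0.977 times the control level, without correction for the number of genes. With the block it was 0.775 to 0.918 times (SE 0.0555, limma adjusted p = 0.538). The exact two-sided permutation test gave p = 0.1 and exact sign flips within pairs p = 0.25, each the smallest that 3 against 3 allows. Blocked fits on 2 replicates, which leave 1 residual degree of freedom, gave Pdgfra log2 fold changes of −0.20 without replicate 1 (limma adjusted p = 0.337), −0.21 without replicate 3 (0.869) and −0.33 without replicate 2 (3.79e-05). The last of these called 156 of 14087 genes (1.11%), among them Pdgfrb (−0.21, limma adjusted p = 7.44e-04) and Pdgfc (−0.17, limma adjusted p = 0.0359), which lay higher with the p53RE guide in the replicate left out. In the authors' deposited table Pdgfra had a log2 fold change of −0.25, a p of 0.0971 and a false discovery rate of 1.

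The 250 bases before the RefSeq start of Pdgfra are shown because Pdgfra was the member whose groups stood apart, and those before Pdgfd because it differed most between replicates among members with a promoter sequence at hand (chr5:75152001-75152250 and chr9:6168236-6168485, GRCm38.p6, both plus strand). Capitals mark matches on either strand to the GC box GGGCGG, the CCAAT box CCAAT, the E-box CACGTG bound by Myc and Max, or the TATA box TATAAA.
Pdgfra: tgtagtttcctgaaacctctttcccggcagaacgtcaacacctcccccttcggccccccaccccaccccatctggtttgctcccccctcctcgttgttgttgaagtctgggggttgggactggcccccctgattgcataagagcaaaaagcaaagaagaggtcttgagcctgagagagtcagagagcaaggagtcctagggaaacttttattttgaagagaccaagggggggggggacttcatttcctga
Pdgfd: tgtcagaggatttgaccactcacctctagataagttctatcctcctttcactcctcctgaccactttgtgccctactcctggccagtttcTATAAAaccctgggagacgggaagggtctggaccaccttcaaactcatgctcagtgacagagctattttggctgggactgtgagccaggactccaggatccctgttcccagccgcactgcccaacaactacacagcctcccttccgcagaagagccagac
The Pdgfra window held 0 of these motifs and the Pdgfd window 1, a TATA box match that begins 160 bases before the start. Of the 32851 such windows searched, 32.7% held the GC box, 33.8% the CCAAT box, 6.02% the E-box and 12.4% the TATA box. RefSeq promoter windows were at hand for 4 of the 6 genes. Both windows of Pdgfa held the GC box, 1 and 2 times, and were 66.4% and 72.4% G or C, where the median window had 52.4%. The window of Pdgfc held 0 matches.

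Pdgfrb encodes receptor beta, the receptor typical of pericytes and also abundant on cultured fibroblasts. It stood at 200.3, 125 and 144 CPM with the control guide and at 166, 143 and 129 CPM with the p53RE guide. Replicate 1 was the highest with both guides and replicate 2 went the other way from replicates 1 and 3, so the groups overlapped. Means were 156 ± 39.4 and 146 ± 18.4 CPM (SD, n = 3 each), with a log2 fold change of −0.08 (SE 0.186, limma adjusted p = 1.0). The interval was 0.695 to 1.30 times the control level, and 0.772 to 1.17 times with the block. Mural cell markers, the list closest to pericytes, all had an entry, 10 of 10. They summed to 2058 to 2261 CPM with the control guide and 2144 to 2426 CPM with the p53RE guide. Most of that was Acta2 (mean 886 CPM) and Tagln (736), followed by Notch3 (250) and Cspg4 (171 CPM). Mcam (62.2), Rgs5 (61.2) and Des (36.4 CPM) were lower. Myh11 (2.72), Abcc9 (2.69) and Kcnj8 (0.280 CPM, not tested) were the lowest. The part of these markers in the level of Pdgfrb was not tested. In bulk RNA, fewer cells of a type and less RNA per cell cannot be told apart.

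**Figure D2:**
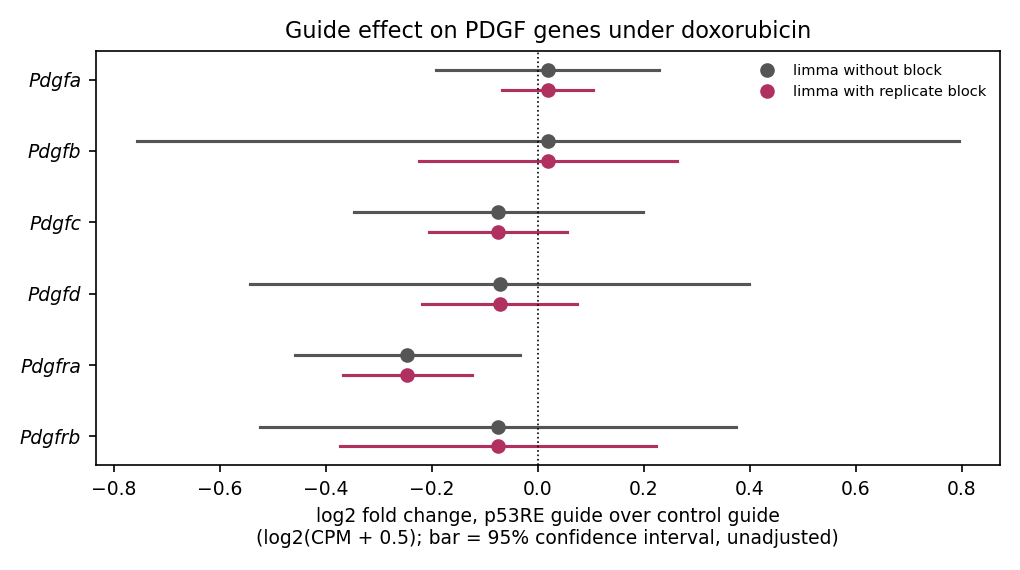
Log2 fold change of each PDGF gene (horizontal axis, p53RE guide over control guide, log2(CPM + 0.5) scale) with its 95% confidence interval, from limma without a block (grey) and with replicate number as a block (red). Intervals are not corrected for the number of genes; those of Pdgfra lie below 0 in both fits, and those of the other 5 genes span 0.

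Levels of different genes can be compared only per length, so CPM was divided by the merged exon length of each gene in kb. On that scale Pdgfrb was the most abundant at 27.6 CPM per kb, above 88.4% of 13992 tested genes with a known length. Pdgfa followed at 24.4, Pdgfc at 12.3, Pdgfd at 8.95, Pdgfra at 3.33 and Pdgfb at 1.11 CPM per kb. Each gene stood above the next in 6 of 6 libraries. The ranges of Pdgfrb (22.7 to 36.6) and Pdgfa (22.3 to 26.7 CPM per kb) overlapped, and the ranges of the other neighbours did not.

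The order of Pdgfrb and Pdgfa depended on the length used. Divided by the longest transcript, Pdgfa stood at 36.9 and Pdgfrb at 27.9 CPM per kb, while Pdgfc (17.8), Pdgfd (9.02), Pdgfra (4.88) and Pdgfb (1.57 CPM per kb) kept their places. Receptor beta RNA exceeded receptor alpha RNA per kb by 6.70 to 9.72 times with the control guide and by 7.52 to 10.2 times with the p53RE guide. The groups overlapped, and the ratio was higher with the p53RE guide in 3 of 3 pairs (9.72 to 10.2, 7.13 to 8.66 and 6.70 to 7.52). Its denominator, Pdgfra, was itself lower in 3 of 3 pairs, while Pdgfrb was lower in 2 and higher in 1. The ratio is therefore not separate from the Pdgfra values. RNA of both receptors was thus present, with the beta gene ahead in all 6 libraries. With longest transcripts the ratio was 4.62 to 7.06 over the 6 libraries.

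**Figure D3:**
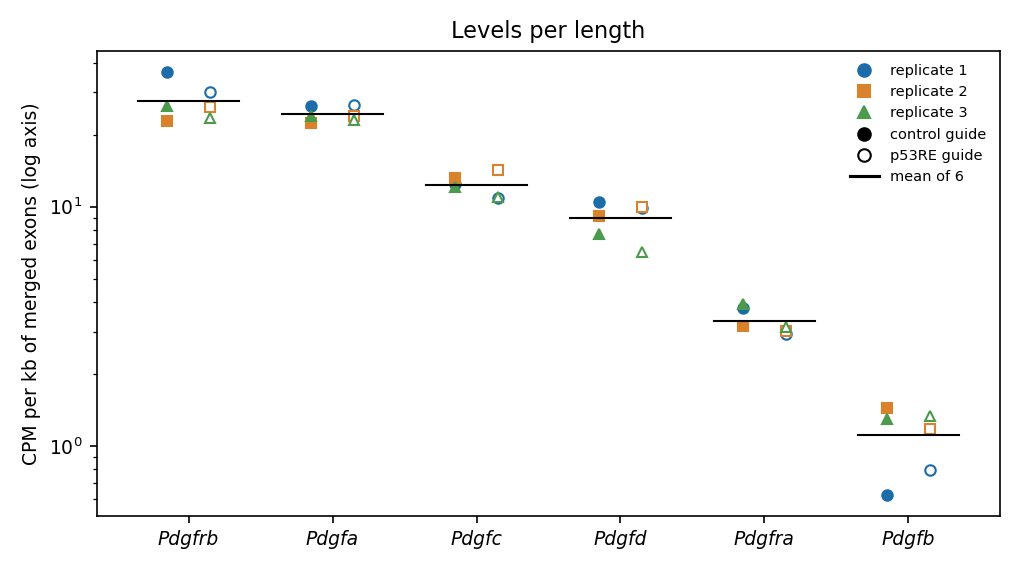
CPM per kb of merged exons (log axis) of the 6 PDGF genes in each library, ordered by their mean over 6 libraries (black lines); filled symbols are the control guide, open symbols the p53RE guide, and shape and colour give the replicate. Pdgfrb and Pdgfa lead at 27.6 and 24.4, and Pdgfb is lowest at 1.11 CPM per kb.

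The 4 ligand genes summed to 47.1 ± 2.56 CPM per kb with the control guide and 46.4 ± 4.17 with the p53RE guide (SD, n = 3 each). Pdgfa made up 51.5 ± 2.65% and 52.97 ± 3.81% of that sum, Pdgfc 26.8 ± 1.79% and 25.9 ± 3.11%, Pdgfd 19.3 ± 2.02% and 18.7 ± 2.76%, and Pdgfb 2.42 ± 1.02% and 2.41 ± 0.781% (SD, n = 3 each). The guides differed in each share by less than the SD of either group. Within pairs, the share of Pdgfa was higher with the p53RE guide in 3 of 3 (52.8% to 55.4%, 48.4% to 48.6% and 53.2% to 54.97%), and the other shares went both ways. The CPM of Pdgfa itself was higher in 2 pairs and lower in 1, so its share is not separate from the values of the other ligands. Pdgfa and Pdgfc, the ligands of receptor alpha, thus held most of the ligand RNA, while receptor beta had the more abundant receptor RNA. Pdgfd, its selective ligand, ranged from 15.5% to 21.0% over the 6 libraries and was lowest in both replicate 3 libraries.

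**Figure D4:**
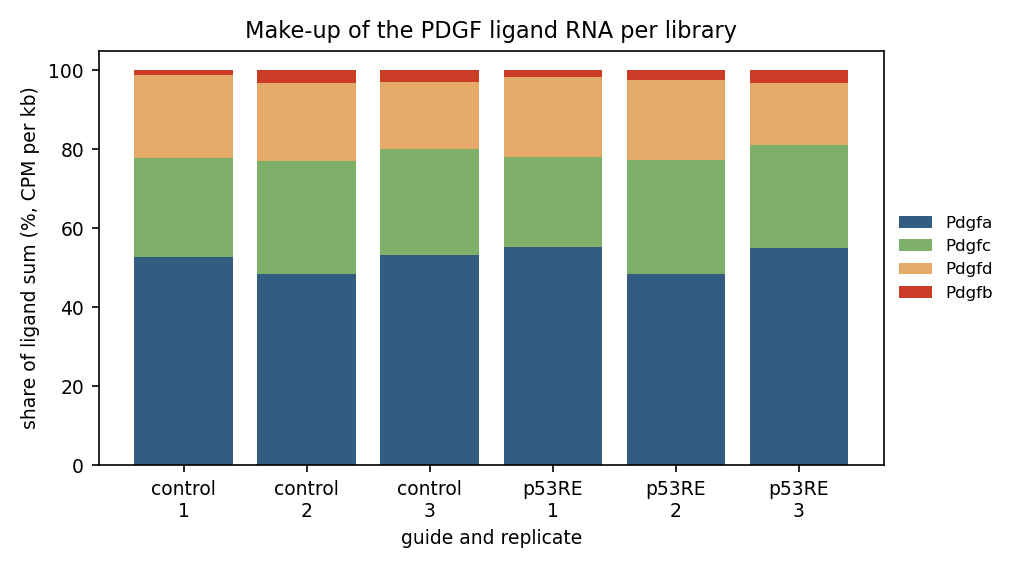
Share of each ligand gene in the summed ligand RNA (%, from CPM per kb of merged exons) in each of the 6 libraries. Pdgfa holds 48.4% to 55.4%, Pdgfc 22.6% to 28.8%, Pdgfd 15.5% to 21.0% and Pdgfb 1.26% to 3.21%.

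Replicate number went with larger differences than the guide for 5 of the 6 genes. In the fit with guide and replicate number, levels of Pdgfb, Pdgfd, Pdgfa and Pdgfc differed between replicates (limma F test, adjusted p = 7.44e-04, 9.61e-04, 0.00907 and 0.0280), and those of Pdgfrb (0.0865) and Pdgfra (0.128) did not pass. So 4 of 6 passed, where 48.6% of all genes did, and replicate differences were thus common in these libraries. In 5 of 6, all but Pdgfra, both libraries of 1 replicate number lay above or below the other 4, as in 77.5% of all genes. By limma without trend 2 passed, since Pdgfa (adjusted p = 0.115) and Pdgfc (0.154) were lost. Pdgfb varied most, its replicate means of 2.96, 5.46 and 5.48 CPM spanning 1.85 times, followed by Pdgfd with 32.1, 30.3 and 22.4 CPM (1.43 times) and Pdgfrb with 183, 134 and 136 CPM (1.37 times). Replicate 1 thus combined the lowest Pdgfb with the highest Pdgfrb.

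The share of the log2 variance that went with replicate number was 91.1% for Pdgfb, 87.8% for Pdgfd, 85.8% for Pdgfa, 78.3% for Pdgfrb and 68.8% for Pdgfc, against a median of 80.5% over all genes. For Pdgfra it was 21.1%, and 63.9% went with the guide, where the median gene had 3.94%. Counting reads alone gives a coefficient of variation of 4.97% to 8.14% for Pdgfb, whose libraries varied by 38.8% with the control guide and 25.3% with the p53RE guide. For Pdgfra it gives 1.94% to 2.43%, against 10.5% and 3.09% between libraries.

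Many markers also differed by replicate number, as did most genes. Both libraries of 1 number stood apart for 9 of 9 macrophage, 5 of 5 platelet, 9 of 10 fibroblast and 6 of 9 tested mural markers. Over all genes that share was 77.5%. By the F test between replicates 7, 2, 8 and 5 of these markers passed, in the same order, where 48.6% of all genes did. Among fibroblast and mural markers, Lum (20.6 and 22.7 CPM) was higher in replicate 1 than elsewhere (4.21 to 8.27), and Thy1 (190 and 222, elsewhere 371 to 429) and Mcam (26.5 and 28.6, elsewhere 74.5 to 82.9 CPM) were lower. Macrophage markers, 9 with an entry and led by the lysozyme gene Lyz2, summed to 185 and 292 CPM in the replicate 1 libraries (control and p53RE guide) and to 83.9 to 108 CPM in the other 4. Platelet and megakaryocyte markers, 5 of 5 with an entry, summed to 15.96 and 17.8 CPM in replicate 1 and to 29.6 to 37.7 CPM in the rest. Ppbp, which encodes a platelet chemokine, had the highest mean (11.7 CPM), at 1.78 and 2.67 CPM in replicate 1 and 13.6 to 22.0 CPM elsewhere. Itga2b followed with a mean of 11.0 CPM, at 9.30 and 10.0 CPM in replicate 1 and 11.0 to 12.5 CPM elsewhere. Pf4 stood at 0.156 to 0.828 CPM. Gp9 (2.61 and 2.87, elsewhere 1.83 to 2.61 CPM) and Gp1bb (2.11 and 1.71, elsewhere 1.52 to 1.97 CPM) were not lower in replicate 1. Endothelial markers, 4 of 7 with an entry, summed to 59.2 to 69.04 CPM with the control guide and 49.6 to 72.9 CPM with the p53RE guide. Nearly all of that was Kdr, while Pecam1, the defining endothelial adhesion gene, stood at 0.208 to 0.605 CPM. The part of these cells in the levels of Pdgfb, Pdgfa and Pdgfrb was not tested.

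Genes that make PDGFs active were all measured. Of 9 tested genes of ligand processing 5 lay higher and 4 lower with the p53RE guide, with a median log2 fold change of 0.02 (−0.0004 over all genes) and 0 called by limma, with 0 at an unadjusted p under 0.05. The furin-like proteases Pcsk7 (37.3 and 39.2 CPM, log2 fold change 0.07) and Pcsk5 (11.3 and 10.2 CPM, −0.15) and the urokinase gene Plau (264 and 251 CPM, −0.07) had the smallest p and did not pass. Pcsk7 was higher in 3 of 3 pairs, and its groups did not overlap, as for 2.15% of all genes.

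Of 24 genes that carry the signal inward from the receptors, 6 lay higher and 18 lower, where 50.3% of all tested genes lay lower. The 24 had a median log2 fold change of −0.03, and limma called 0 of them, with 0 at an unadjusted p under 0.05. Akt1, a kinase downstream of phosphatidylinositol 3-kinase, was the most abundant at 394 ± 7.57 and 388 ± 12.8 CPM (SD, n = 3 each). The adaptor genes Nck1 (31.6 and 29.9 CPM, log2 fold change −0.08) and Crk (201 and 193 CPM, −0.06) were lower in 3 of 3 pairs and did not pass. The groups of Crk did not overlap, where 1.47% of all genes stood apart with a lower level. Plcg1, which encodes the phospholipase C gamma bound by both receptors, was higher in 3 of 3 pairs (77.2 and 80.9 CPM, 0.07) and did not pass. Differences in this group were small, and 14 of the 24 genes passed the test between replicates, where 48.6% of all genes did.

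Of 12 negative regulators and co-receptors, 4 lay higher and 8 lower, with a median of −0.01 and 0 called by limma, with 0 at an unadjusted p under 0.05. Lrp1, a large endocytic receptor that binds the beta receptor, led at 1848 ± 410 and 1880 ± 716 CPM (SD, n = 3 each). The phosphatase gene Ptpn1 (96.3 and 98.1 CPM, log2 fold change 0.03), the receptor-like gene Pdgfrl (4.20 and 3.92 CPM, −0.10) and the Ras inhibitor gene Spred1 (67.4 and 65.4 CPM, −0.04) had the smallest p and did not pass.

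Of 13 early genes known to be switched on by PDGF in fibroblasts, 8 lay higher and 5 lower with the p53RE guide, with a median log2 fold change of 0.02. Without the block limma called 0, with 1 at an unadjusted p under 0.05. In the blocked fit 1 rose, which was Myc, the neighbour of Pvt1 (27.0 to 35.6 CPM with the control guide and 43.5 to 53.8 CPM with the p53RE guide; log2 fold change 0.67, limma adjusted p = 5.49e-04). In limma without trend, where the blocked fit called 0 of all genes, this blocked call of Myc was lost (adjusted p = 0.835). With the block, edgeR (adjusted p = 2.77e-04) and DESeq2 (adjusted p = 4.55e-16) called Myc. None of the others passed: Egr1, the most abundant, stood at 198 ± 48.5 and 189 ± 17.8 CPM (SD, n = 3 each; −0.04), Srf at 57.2 and 61.4 CPM (0.11) and Ier2 at 30.5 and 32.8 CPM (0.10). Of the 112 tested genes of all these lists other than the 6 PDGF genes, edgeR and DESeq2 called 0 without the block and 1 with it.

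Relatives of the PDGF genes gave 0 calls in limma, with or without the block. The groups of Vegfc, a VEGF ligand, did not overlap, with the p53RE guide lower (1.47% of all genes). The VEGF ligands, which share the cystine-knot fold of PDGFs, had 5 tested genes, 3 higher and 2 lower, at a median of 0.00. Vegfa, the most abundant, stood at 105 ± 18.3 and 105 ± 13.8 CPM (SD, n = 3 each), Vegfc at 15.2 and 14.3 CPM (−0.08), Pgf at 5.75 and 5.45 CPM (−0.05) and Figf, the older name of Vegfd, at 16.2 and 16.4 CPM (0.07). Among related receptor kinases 4 were tested, 1 higher and 3 lower, at a median of −0.08. These were Kdr (62.1 and 61.5 CPM, −0.03), Flt1 (40.1 and 36.5 CPM, −0.13), Flt4 (53.7 and 49.1 CPM, −0.12) and the macrophage receptor gene Csf1r (7.84 and 9.28 CPM, 0.08), while Kit stood at 0.208 and 0.210 CPM and was not tested. Per kb, the mean of Pdgfrb (27.6) was above those of Kdr (6.84), Flt4 (6.24), Flt1 (2.84), Csf1r (1.48) and Kit (0.0234 CPM per kb).

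Of 8 other receptor kinases of fibroblasts, 4 lay higher and 4 lower, at a median of −0.0004, and limma called 0, with 0 at an unadjusted p under 0.05. Axl, the Gas6 receptor, led at 163 CPM per kb, and Ddr1 (34.9) and Ddr2 (33.6 CPM per kb), the collagen receptors, also stood above Pdgfrb. Fgfr1 (19.8), Egfr (13.5), Fgfr2 (7.77), Igf1r (6.97) and Met (3.97 CPM per kb) stood between Pdgfrb and Pdgfra. Between guides, Axl (log2 fold change −0.03), Ddr2 (−0.06) and Met (0.06) did not pass.

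The genes whose pattern over the 6 libraries was most like that of each member were found by Pearson correlation of log2(CPM + 0.5), as a description, among some 10398 genes with a mean of at least 5 CPM. The points share replicates and depth. For Pdgfra these were 9930012K11Rik (r = 0.971) and Rce1, a protease gene that matures Ras-like proteins (0.958), and 4 genes reached 0.95. For Pdgfrb they were Foxc1, a transcription factor gene of mesenchyme (0.997), and Gtf2h5 (0.991), and 113 genes reached 0.95. For Pdgfa they were 0610010F05Rik (0.997) and Zfp692 (0.996), for Pdgfb Stk39 (0.999) and Senp5 (0.998), for Pdgfc Atg5 (0.987) and Paip1 (0.984), and for Pdgfd WASH1 (0.995) and Dnaja2 (0.994). Between 45 and 379 genes reached 0.95 for these 4 ligands.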

How the data were processed

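RNA-seq of 6 doxorubicin-treated MEF samples (2 guides, 3 biological replicates each) was used, and the 6 untreated samples were not analysed here. Libraries were strand-specific and poly(A)-selected, per the labels' protocols. The build mm10 and the tools edgeR 3.22.3, HTSeq 0.6.1, StringTie 1.2.4 and TopHat2 2.0.14 are named, without roles, in the submitters' processing notes. The authors deposited CPM (reads of a gene relative to library size), made with edgeR per the file headers, with their log2 fold change and p-value from a test the headers do not name. The 6 columns of pseudo-counts were not used. Entries for reads in no gene (2, holding 8.78% to 10.2% of a library) were removed. Dividing CPM by the worth of 1 read gave whole reads within 0.01 for 100% of values.

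The main test was limma 3.58.1 (trend and robust moderation, 4 residual degrees of freedom), as stated in the report. edgeR 4.0.16 and DESeq2 1.42.0 ran on the recovered reads of the same genes. Deviations from group means correlated at 0.869, 0.739 and 0.817 between libraries with equal numbers (at most 0.203 otherwise, across genes), so numbers were taken to pair libraries, and a fit blocked on that number, which leaves 2 residual degrees of freedom, was run. The scripts were tested on simulated data. Exon lengths and coordinates are from GENCODE M21. Other choices tried were pseudocounts of 1 and 0.1, no filter or a mean of at least 5 CPM, quantile and median scaling, no trend, and leaving out libraries. Members and lists were chosen with earlier results of these data known. Named list genes are the most abundant and the 3 with the smallest p, and any other was named after its values were seen. A gene of this kind is not reported here. P-values of the guide fits set a difference against the spread between these samples. Without the block, that spread includes the differences between replicate numbers.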

Additional observations from a re-analysis of the deposited data

How the results depend on the processing

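The 6 PDGF genes passed under no alternative without a block, and under none of the planned ones except the blocked fit without replicate 2, in which Pdgfra (−0.33), Pdgfrb (−0.21) and Pdgfc (−0.17) passed. The replicate block changed no other call of a PDGF gene. Pdgfra stayed below 0 under all 22 alternatives (−0.33 to −0.19, unadjusted p up to 0.0995), and Pdgfc too (−0.20 to −0.01). Pdgfb, with a fold change near 0, changed sign with edgeR (−0.031) and DESeq2 (−0.031) and could not be tested at a mean of at least 5 CPM. Leaving out single libraries changed the sign of 4 genes, with ranges of −0.043 to 0.081 (Pdgfa), −0.31 to 0.22 (Pdgfb), −0.19 to 0.13 (Pdgfd) and −0.22 to 0.12 (Pdgfrb). In the blocked fit, leaving out a replicate did the same, with ranges of −0.023 to 0.061, −0.12 to 0.17, −0.17 to 0.015 and −0.21 to 0.024 in the same order; the cause was not tested. Over all genes the count called was 0, and 5 with the replicate block in limma or edgeR, 0 with the block in limma without trend, 1 with DESeq2, 6 with DESeq2 and the block, and 8, 15 and 156 in the blocked fit without replicate 3, 1 and 2, where 1 residual degree of freedom remains. Replicate differences were called for 7022 genes, 4 of them PDGF genes, and by limma without trend for 4328, 2 of them PDGF genes.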
